A study of Mus musculus with 10 samples.

Results

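Matrix metalloproteinases and their tissue inhibitors were examined in the lungs of mouse pups that had breathed cigarette smoke and in the lungs of pups kept in clean air. The set held 10 genes of 18193 named on the array, namely the gelatinases Mmp2 and Mmp9, the stromelysin Mmp3, the macrophage elastase Mmp12, the membrane-anchored Mmp14, the related protease Adamts1 and the inhibitors Timp1, Timp2, Timp3 and Timp4. All probe sets annotated to 1 of these symbols alone were taken, 23 in all, of which 19 were bright enough to be tested and 4 were not. Every gene kept at least 1 tested probe set, and its brightest one represents it below.

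The series comprised 10 C57BL/6J mice from Jackson, all 2 weeks old at harvest, with 1 array for each lung. The smoke group of 6 pups shared a smoke chamber with the dam from day 1 of life, for 1 hour daily during 7 days and for 2 hours daily during the next 7, with puffs of 35 ml lasting 2 seconds and particulate matter averaging 90 mg per cubic metre. The control group of 4 pups lived in filtered air apart from the exposed animals. No allele, drug or transgene is named for either group, sex is recorded as unknown, and nothing in the labels says whether pups shared a litter, so each p-value speaks only to the scatter among these lungs. The comparison asked which genes of the neonatal lung differ after exposure to smoke.

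Matrix metalloproteinases are zinc-dependent enzymes, made with an inhibitory propeptide, that cut collagens, elastin, proteoglycans and cell surface proteins. Tissue inhibitors of metalloproteinases occupy the active site of the enzyme, and the balance between both families shapes matrix turnover while alveoli form after birth in the mouse. Mmp12 is known in the adult mouse as an enzyme needed for emphysema after smoke, and mice that lack Timp3 have enlarged airspaces.

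The tissue carried the markers of lung, with normalized intensities of 19910 to 24840 for Sftpc of alveolar type 2 cells, 19182 to 23726 for Ager of type 1 cells and 21257 to 24369 for Scgb1a1 of club cells. Some arrays stood apart. The actin 3' to 5' ratio, which grows when long transcripts are degraded or copied short, was 31.6 and 29.4 on smoke arrays 1 and 2, 9.26 and 10.3 on smoke arrays 3 and 4, and 2.18 and 2.98 on smoke arrays 5 and 6. In controls it was 9.70, 10.4, 9.28 and 3.96. The Gapdh 3' to 5' ratio ranked the arrays otherwise. It was 4.76, 9.16, 5.94, 3.68, 1.40 and 2.13 on smoke arrays 1 to 6, and 5.27, 5.89, 5.08 and 4.82 in controls. On smoke arrays 1 and 4 it thus lay under every control. Xist, the RNA made from the inactive X chromosome of female cells, had a log2 level of 13.96 to 14.09 on control arrays 2 and 4 and smoke arrays 5 and 6, and of 8.25 to 9.38 on the other 6 arrays. Eif2s3y, a gene of the Y chromosome, read 15.9 to 48.3 on the 4 arrays high in Xist (brightest probe set). On the 6 arrays low in Xist it read 666 to 1550. The 4 arrays thus read as female and the 6 as male. Without smoke arrays 5 and 6, smoke lungs reading as male stand against 2 male and 2 female controls. For the brightest probe set of each member, fits that leave out smoke arrays 1 and 2, or arrays 5 and 6, stand beside the fit on all arrays.

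None of the 10 genes passed the test of smoke against control (limma, adjusted p under 0.05 over 27022 probe sets), where 0.725% of 13382 genes tested did. At an unadjusted p under 0.05, 3 of the 10 genes were past the mark, Adamts1 higher in smoke and Mmp12 and Timp4 lower, against 10.2% of all genes (5.75% higher and 4.47% lower). The same 3 genes met the fold and pairwise rule in the design text, which calls 6.84% of all genes. As applied here the rule also requires that unadjusted p, so no other member could meet it. The median log2 change of the members was -0.22, with 5 above 0 and 5 below, and the median over all genes tested was 0.056. Among the 19 tested probe sets 0 passed after adjustment, against 0.551% of all probe sets. An unadjusted p under 0.05 was reached by 5 of them, where 10% of all probe sets reached it, and the groups of 1 did not overlap, where those of 4.37% did not.

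**Figure D1:**
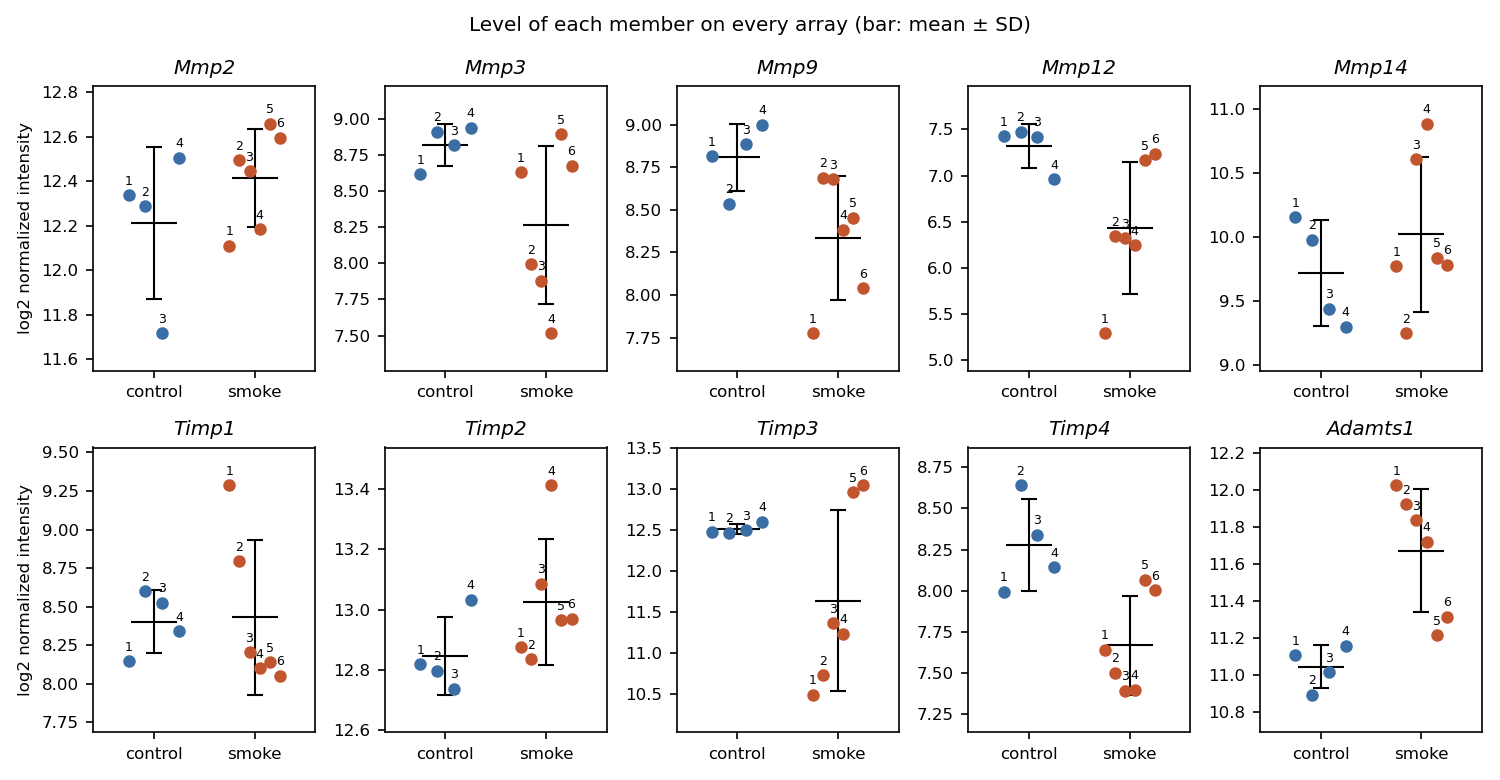
Log2 normalized intensity of each member (brightest probe set) on every array, with 4 control and 6 smoke arrays numbered by replicate; the bar is the mean ± SD, and the vertical scales differ between panels. Adamts1 is the 1 member whose groups do not overlap, and in Timp3, Timp4 and Mmp12 smoke arrays 5 and 6 lie apart from smoke arrays 1 to 4.

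Adamts1, a secreted protease with thrombospondin repeats that cuts the proteoglycans versican and aggrecan, was higher on all 6 smoke arrays than on any control array. Its normalized intensity was 2206, 1903, 2072 and 2286 on the control arrays, and on the smoke arrays it ran from 2375 through a median of 3516 to 4166. It was the 1 member of 10 whose groups did not overlap, where 4.09% of all genes tested did not (1.97% higher and 2.11% lower). The log2 change was 0.63 ± 0.18 (SE; 95% confidence interval 0.23 to 1.03), or 1.54-fold, and did not pass after adjustment (limma, adjusted p = 0.259). The size of the difference varied among smoke arrays, with 3375 to 4166 on arrays 1 to 4 and 2375 and 2548 on arrays 5 and 6, the latter close above the highest control. Among the arrays with actin ratios of 9.26 to 10.4, the level was 1903 to 2206 on control arrays 1 to 3 and 3375 and 3656 on smoke arrays 3 and 4. In a fit that also held each array's log2 actin ratio, the log2 change was 0.59 ± 0.12 and passed (adjusted p = 0.0266), where 2.77% of all genes did. Without smoke arrays 5 and 6 it was 0.83 ± 0.13 (adjusted p = 0.00888), where 5.54% of all genes passed. Without smoke arrays 1 and 2 it was 0.48 ± 0.17 and did not pass (adjusted p = 0.326).

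Mmp12, the elastase of macrophages, read lower on 4 of 6 smoke arrays than on every control array. The control arrays read 172, 178, 172 and 125, and the smoke arrays ran from 39.2 through a median of 80.6 to 151. Smoke arrays 1 to 4 all lay under the lowest control, at 39.2 to 81.2, whereas smoke arrays 5 and 6, at 144 and 151, lay within the control range. The log2 change was -0.89 ± 0.37 (adjusted p = 0.464), with an interval from -1.70 to -0.071. Without smoke arrays 1 and 2 it was -0.58 ± 0.30 (adjusted p = 0.518), and without smoke arrays 5 and 6 it was -1.27 ± 0.35 (adjusted p = 0.0683). With array weights it was -0.50. Among arrays of like actin ratio, smoke arrays 3 and 4 had 80.0 and 76.0 against 172, 178 and 172 on control arrays 1 to 3. Of 12 macrophage and monocyte markers, 11 were tested and 0 passed. At an unadjusted p under 0.05, 2 of the 11 were lower, where 4.47% of all genes were. The median log2 change of the 11 markers was -0.40, with 2 above 0 and 9 below. Their summed level was 15.36 to 15.79 in controls and 14.98 to 15.52 after smoke, on the log2 scale, so the groups overlapped. In whole lung RNA, fewer cells of a type and less RNA per cell cannot be told apart, and the part of the macrophage markers in the Mmp12 values was not tested.

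Mmp3, a stromelysin of fibroblasts that cuts proteoglycans and can activate other metalloproteinases, had intensities of 392, 481, 451 and 490 in controls. On the smoke arrays it ran from 183 through a median of 326 to 476, with 3 of 6 below every control and none above. The log2 change was -0.55 ± 0.28 (adjusted p = 0.528). It was -0.58 with smoke arrays 1 and 2 left out and -0.81 with arrays 5 and 6 left out (adjusted p = 0.509 and 0.0996). Mmp3 and Mmp12 are close neighbours on chromosome 9, and their promoters are shown here because both hold the same pair of motifs. Both genes had negative log2 changes, as did Mmp9, Timp3 and Timp4. With each group centred on its mean, Mmp3 and Mmp12 correlated at r = 0.26 over 10 arrays. Whether the motifs bear on these levels was not tested. RefSeq windows of 300 bases, from 250 before to 50 after the annotated start (GRCm38.p6), were found for 8 of the 10 genes. They were searched on both strands for TGANTCA, the letters of the AP-1 site, for TATAAA and for GGGCGG, the GC box, which do not overlap in the windows shown. The motifs are in capitals, and CCGCCC is the GC box on the other strand.
Mmp3: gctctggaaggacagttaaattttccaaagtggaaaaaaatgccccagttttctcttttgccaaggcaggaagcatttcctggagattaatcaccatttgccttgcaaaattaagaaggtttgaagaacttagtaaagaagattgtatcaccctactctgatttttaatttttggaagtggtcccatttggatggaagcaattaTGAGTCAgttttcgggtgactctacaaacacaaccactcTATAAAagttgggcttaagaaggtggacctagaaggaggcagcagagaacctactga
Mmp12: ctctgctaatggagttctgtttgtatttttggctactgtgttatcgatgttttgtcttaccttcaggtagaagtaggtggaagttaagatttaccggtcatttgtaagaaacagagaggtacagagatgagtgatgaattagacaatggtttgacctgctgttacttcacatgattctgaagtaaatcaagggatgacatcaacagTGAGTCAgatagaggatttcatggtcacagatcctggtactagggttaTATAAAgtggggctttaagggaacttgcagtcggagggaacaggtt
Adamts1: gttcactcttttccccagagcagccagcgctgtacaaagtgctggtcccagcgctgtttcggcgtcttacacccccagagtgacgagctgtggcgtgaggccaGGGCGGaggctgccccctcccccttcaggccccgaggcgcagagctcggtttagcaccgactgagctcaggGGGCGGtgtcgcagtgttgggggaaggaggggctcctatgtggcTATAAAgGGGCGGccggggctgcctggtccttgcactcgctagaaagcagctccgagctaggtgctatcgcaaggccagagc
Timp3: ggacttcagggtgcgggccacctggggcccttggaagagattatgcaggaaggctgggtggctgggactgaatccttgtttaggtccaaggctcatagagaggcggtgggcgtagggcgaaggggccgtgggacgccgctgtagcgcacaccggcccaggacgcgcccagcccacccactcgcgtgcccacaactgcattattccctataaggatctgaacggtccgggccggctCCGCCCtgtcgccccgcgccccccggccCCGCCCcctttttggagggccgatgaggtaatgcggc
The Mmp3 window lies at chr9:7445572-7445871 on the plus strand and the Mmp12 window at chr9:7347124-7347423 on the plus strand. TGAGTCA begins at position -46 from the start in Mmp3 and at -44 in Mmp12, and TATAAA begins at -7 and at 5. The other annotated start of Mmp12 holds none of the 3 motifs. No other member's window held TGANTCA, which 7.81% of 32851 promoters of the same length hold, whereas 13.6% hold TATAAA and 35.7% hold GGGCGG. Mmp2 and Mmp9 had no window and were not searched. Timp4 held none of the 3 motifs. Adamts1 (chr16:85803064-85803363, minus strand) and Timp3 (chr10:86300162-86300461, plus strand) are shown as the members with the most opposite levels across arrays. Adamts1 holds TATAAA and 3 GC boxes, and Timp3 holds 2 GC boxes and no TATAAA. These are matches of letters only.

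Other metalloproteinase genes lie beside Mmp12 and Mmp3. In the order of the RefSeq gene table these are Mmp13, Mmp12, Mmp1b, Mmp3, Mmp1a, Mmp10, Mmp8, Mmp27, Mmp20 and Mmp7. Mmp8, the collagenase stored in neutrophil granules, passed the test, with 484, 449, 621 and 392 in controls and 127 through a median of 190 to 235 after smoke (log2 change -1.39 ± 0.22, adjusted p = 0.0128). Unlike Mmp12, its smoke arrays 5 and 6 were as low as the others, at 200.2 and 172. Without control array 1, 2 or 3 the Mmp8 change was of like size, at -1.38, -1.42 and -1.26, but did not pass (adjusted p = 0.0655, 0.0607 and 0.0802). Mmp13, Mmp1b, Mmp1a, Mmp10, Mmp20 and Mmp7 were below the filter on dim probe sets, and Mmp27 was not analysed here. Of these, Mmp13, another collagenase, read 157 to 285 in controls and 27.9 to 211 after smoke, with no test.

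Mmp9, the gelatinase of neutrophils and macrophages, had 450.1, 372, 473 and 512 on the control arrays and ran from 219 through a median of 342 to 413 after smoke. Smoke arrays 2 and 3, at 413 and 410.5, lay within the control range, and the other 4 lay under it. The log2 change was -0.47 ± 0.23 (adjusted p = 0.512), with an interval from -0.96 to 0.020. It was -0.42 with smoke arrays 1 and 2 left out and -0.43 with arrays 5 and 6 left out. The other probe set of Mmp9 was too dim to test, at 110, 15.8, 64.6 and 27.0 in controls, where 15.8 is the floor set on all low values, and at the floor on all 6 smoke arrays (p = 0.0667 by an exact two-sided permutation test, which cannot go below 0.00952 here). Of 11 neutrophil markers listed, 6 were tested, 2 fell and 4 did not pass, where 0.702% of all genes fell. Their summed log2 level was 14.59 to 15.14 in controls and 12.91 to 14.07 after smoke, with no overlap. Ly6g, Mpo, Elane, Retnlg and Cxcr2 had no tested probe set, and the part of these cells in the Mmp9 and Mmp8 values was not tested.

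Mmp2 and Mmp14, which act together because Mmp14 on the cell surface activates the Mmp2 proenzyme with the help of Timp2, showed no difference past the test. Mmp2 had 5170, 5003, 3365 and 5813 in controls and 4421 through a median of 5675 to 6466 after smoke (log2 change 0.20 ± 0.18, adjusted p = 0.719, interval -0.18 to 0.59). Without control array 3, which had the lowest level, the Mmp2 change was 0.038, without smoke arrays 1 and 2 it was 0.26, and without smoke arrays 5 and 6 it was 0.097. The other Mmp2 probe set was at -0.029 ± 0.261, with an interval from -0.60 to 0.54. It read 2645 to 4406 in controls, 2085 to 4404 on smoke arrays 1 to 4 and 5209 and 4778 on smoke arrays 5 and 6. Without smoke arrays 5 and 6 this probe set was at -0.27 ± 0.24, and without smoke arrays 1 and 2 at 0.22 ± 0.21. Mmp14 had 1140, 1008, 695 and 630 in controls and 608 through 898 to 1889 after smoke, and the highest values came from smoke arrays 3 and 4. Its log2 change was 0.30 ± 0.32 (adjusted p = 0.771). For Mmp14 it was 0.56 with smoke arrays 1 and 2 left out and 0.41 with arrays 5 and 6 left out (adjusted p = 0.530 and 0.498). Over single omissions it ran from 0.13 without smoke array 4 to 0.46 without smoke array 2, and it was 0.19 without smoke array 3 and 0.16 without control array 4. A second Mmp14 probe set was above every control on 5 of 6 smoke arrays, at 0.65 ± 0.28 (adjusted p = 0.467), and within the groups the 2 probe sets ran against each other (Pearson r = -0.73 over 10 arrays). The third, too dim to test, was at 15.8 to 18.4 in controls and 15.8 to 133 after smoke, with 96.6 and 133 on arrays 5 and 6 (exact two-sided permutation p = 0.143).

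**Figure D2:**
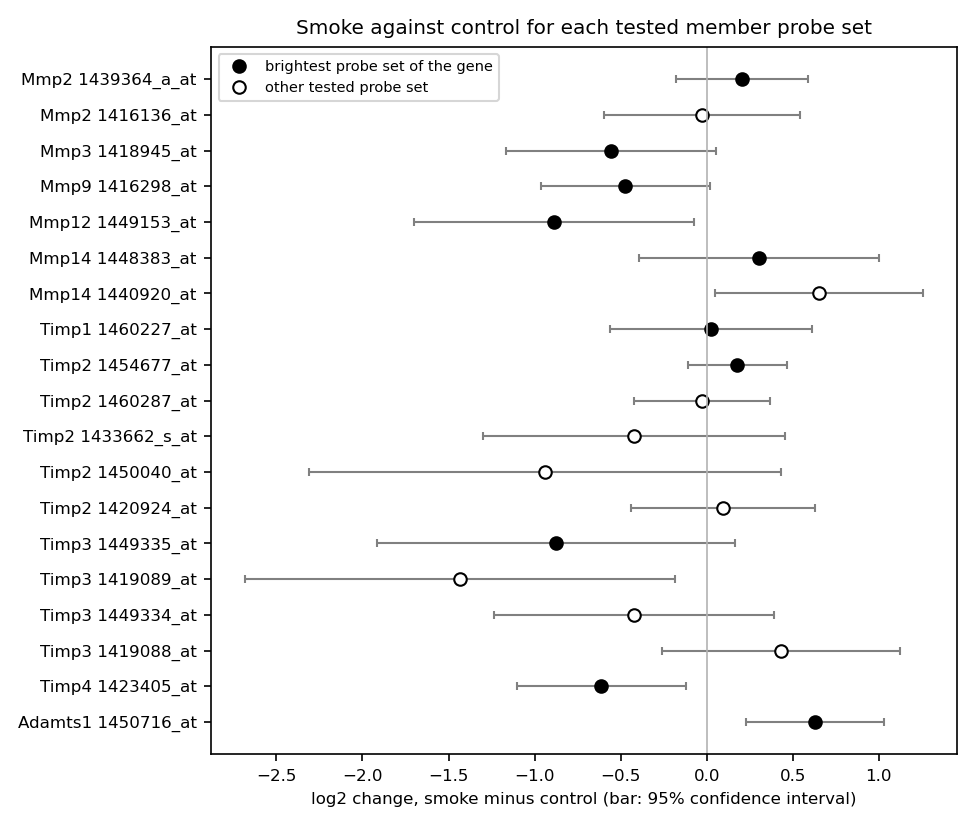
Log2 change, smoke minus control, with its 95% confidence interval for the 19 tested probe sets; filled points are the brightest probe set of a gene. Intervals of 14 probe sets cross 0, and the probe sets of Mmp2, Timp2 and Timp3 point in both directions.

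Timp3, the inhibitor that binds to the matrix itself and also blocks several ADAM and ADAMTS proteases, split the smoke group. The control arrays were alike, at 5706, 5651, 5775 and 6213. The smoke arrays ran from 1437 through a median of 2516 to 8453. Smoke arrays 1 to 4, at 1437 to 2629, all lay below the controls, and smoke arrays 5 and 6, at 7983 and 8453, lay above them. The log2 change over all arrays was -0.87 ± 0.48 (adjusted p = 0.558), and the smoke arrays had an SD of 1.11 against 0.062 in controls. A second bright probe set gave 5028, 4654, 4255 and 5378 in controls, 533 to 2278 on smoke arrays 1 to 4 and 4579 and 4590.2 on smoke arrays 5 and 6 (log2 change -1.43 ± 0.57, adjusted p = 0.434). Both probe sets followed each other within the groups (r = 0.93). The third was at -0.42 ± 0.37 and the fourth, at 148 to 254 in controls the dimmest, was at 0.43 ± 0.32 and ran against the brightest (r = -0.73).

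The Timp3 split went with both array measures. Over the smoke arrays the lowest Timp3 levels were on arrays 1 and 2, with the highest actin ratios, and the highest were on arrays 5 and 6, with the lowest ratios and high Xist. At actin ratios of 9.26 to 10.4, smoke arrays 3 and 4 had 2629 and 2404 and control arrays 1 to 3 had 5651 to 5775. With that ratio in the fit, on the log2 scale, the log2 change was -0.73 ± 0.18 (adjusted p = 0.0562), and the second probe set, at -1.26 ± 0.20, passed (adjusted p = 0.00756). That second Timp3 probe set was at -0.64 ± 0.28 without smoke arrays 1 and 2 (adjusted p = 0.435) and at -2.11 ± 0.42 without smoke arrays 5 and 6 (adjusted p = 0.0232). Without smoke arrays 5 and 6 the brightest probe set fell, at -1.56 ± 0.19 (adjusted p = 0.00204), and without smoke arrays 1 and 2 it was at -0.36 ± 0.39 (adjusted p = 0.793). On the 6 arrays low in Xist (2 control, 4 smoke) the log2 change was -1.54 ± 0.23 (adjusted p = 0.0129), and on the 4 arrays high in Xist (2 control, 2 smoke) it was 0.47 ± 0.27 (adjusted p = 0.704). The difference between both changes was 2.01 ± 0.36 and did not pass over all probe sets (limma, adjusted p = 0.175).

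**Figure D3:**
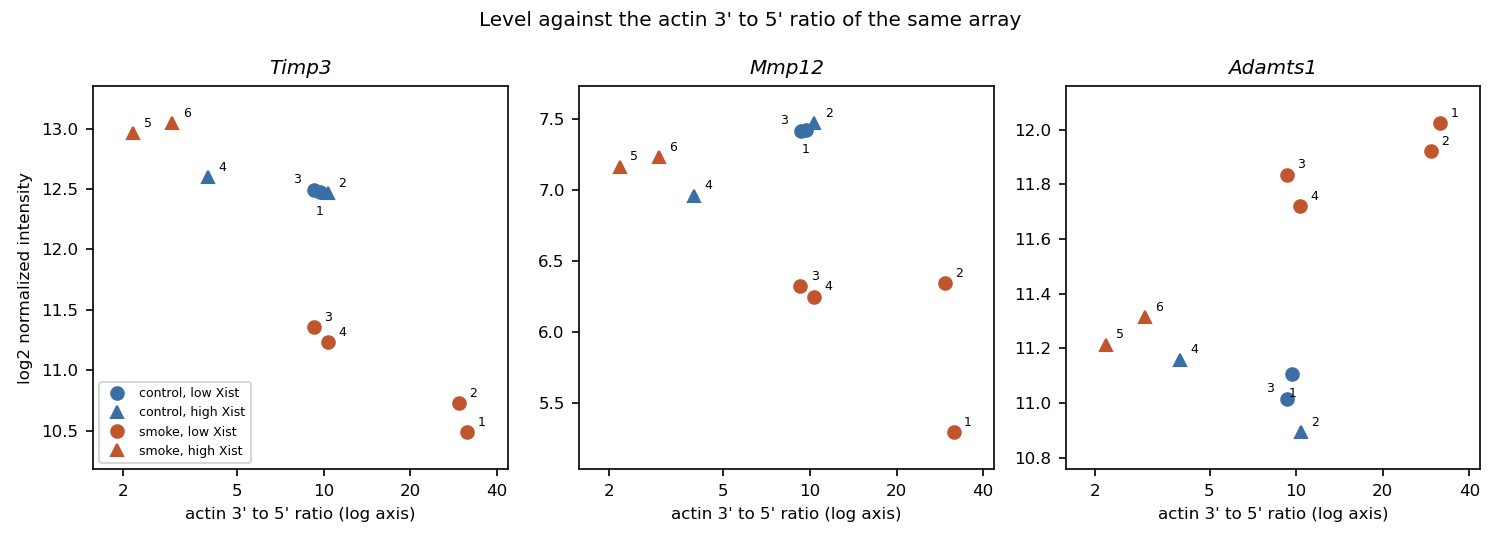
Log2 normalized intensity of Timp3, Mmp12 and Adamts1 against the actin 3' to 5' ratio of the same array (log axis), for 4 control and 6 smoke arrays numbered by replicate; triangles are arrays high in Xist. Near a ratio of 10 the smoke arrays 3 and 4 lie apart from control arrays 1 to 3 in all 3 panels, and smoke arrays 5 and 6 lie nearer to the controls than the other smoke arrays do.

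For Adamts1 the log2 change was 0.81 ± 0.16 on low-Xist arrays (adjusted p = 0.0461) and 0.24 ± 0.19 on high-Xist arrays (adjusted p = 0.786), with a difference of -0.58 ± 0.25 (adjusted p = 0.334). For Mmp12 the changes were -1.37 ± 0.40 and -0.017 ± 0.47 (adjusted p = 0.147 and 0.995). Over all 10 members 2 passed on low-Xist arrays, Timp3 and Adamts1, where 1.64% of all genes did, and 0 passed on high-Xist arrays, where 0.202% did. For the difference between both changes 0 members passed, against 0.00747% of all genes, and 2 had an unadjusted p under 0.05, against 16.7%. Smoke arrays high in Xist were also those with the lowest actin ratios, so Xist level and RNA quality cannot be told apart within the smoke group.

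Timp4 was lower on smoke arrays 1 to 4, at 168 to 199.6, than on every control array, which read 255, 399, 324 and 283. Smoke arrays 5 and 6, at 268 and 256, lay in the control range, and the median after smoke was 190.4. The log2 change was -0.61 ± 0.23 (adjusted p = 0.397), and without smoke arrays 5 and 6 it was -0.80 ± 0.23 (adjusted p = 0.0774). Without smoke arrays 1 and 2 it was -0.56 ± 0.23 (adjusted p = 0.408). The other Timp4 probe set was too dim to test, at 23.8 to 229 in controls and 27.6 to 139 after smoke (exact two-sided permutation p = 0.762).

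Timp1, the inducible and X-linked inhibitor, had 284, 388, 368 and 324 in controls and 265 through a median of 289 to 625 after smoke. Smoke arrays 1 and 2, those with the highest actin ratios, held the 2 highest values of all, at 625 and 444, and the other 4 lay at 265 to 295. The log2 change was 0.027 ± 0.269 (adjusted p = 0.983), with an interval from -0.56 to 0.61. Without smoke arrays 1 and 2 the sign turned, at -0.28 ± 0.17 (adjusted p = 0.605), and without smoke arrays 5 and 6 the Timp1 change was 0.19 ± 0.29.

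Timp2, the inhibitor that also helps to activate Mmp2, had 6 probe sets. The brightest read 7230, 7119, 6829 and 8382 in controls and 7315 through a median of 8008 to 10907 after smoke (log2 change 0.18 ± 0.13, adjusted p = 0.668). It was 0.26 with smoke arrays 1 and 2 left out and 0.21 with arrays 5 and 6 left out. The others that were tested lay at -0.028, -0.42, -0.94 and 0.095, and the last probe set was at the floor on all 10 arrays. On the probe set at -0.42, smoke arrays 1 and 2 had 1174 and 683 against 2224 to 3086 in controls and 2687 to 3174 on the other 4 smoke arrays. Without these 2 arrays its log2 change was 0.14 ± 0.15, and without smoke arrays 5 and 6 it was -0.68 ± 0.42. The Timp2 probe set at -0.94 was at -0.38 ± 0.56 and -1.58 ± 0.56 in the same fits. On that probe set smoke arrays 1 and 2, with the highest actin ratios, had 102 and 56.5. Smoke array 4 and control array 3, with ratios of 10.3 and 9.28, had 89.6 and 114. The other smoke arrays had 250 to 410 and the other controls 373 to 536. The part of the actin ratio in these values was not tested.

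**Figure D4:**
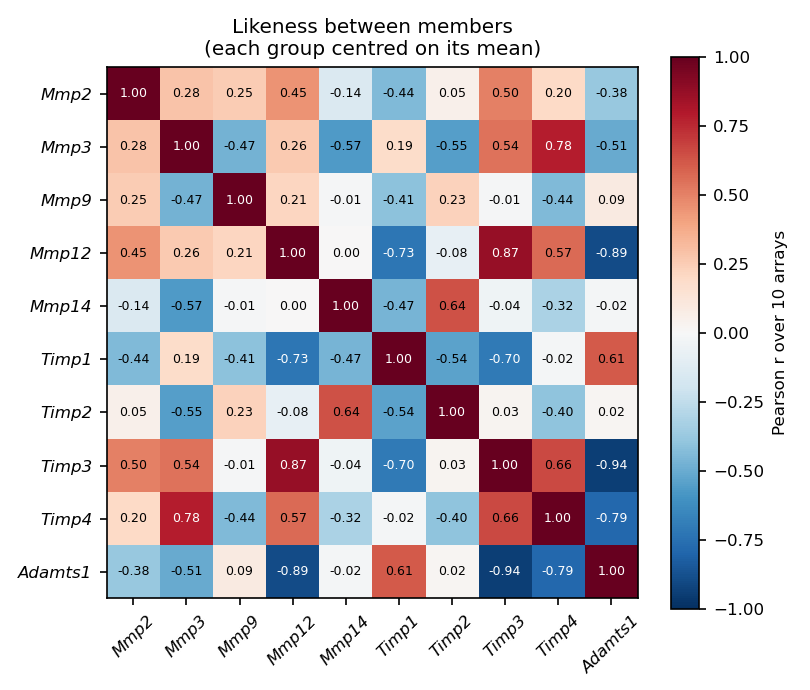
Pearson r between the log2 levels of each pair of members over 10 arrays, after each group was centred on its own mean. Timp3 and Mmp12 run together at 0.87 and against Adamts1 at -0.94 and -0.89.

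With each group centred on its mean, Timp3 and Mmp12 went together across the 10 arrays (r = 0.87) and both went against Adamts1 (r = -0.94 and -0.89). Mmp3 and Timp4 also went together (r = 0.78), as did Timp3 and Timp4 (r = 0.66) and Mmp14 and Timp2 (r = 0.64). Timp4 went against Adamts1 (r = -0.79), and Timp1 went against Mmp12 (r = -0.73) and Timp3 (r = -0.70). All these values rest on the brightest probe set of each gene. For Timp2 it correlated with the other tested probe sets, in order of brightness, at -0.60, 0.67, 0.093 and -0.62. For Mmp14 it correlated with the other tested probe set at -0.73. RNA quality differed among the arrays, with actin ratios of 2.18 to 31.6 and Gapdh ratios of 1.40 to 9.16. The part of RNA quality in the correlations was not tested. For Timp3, Mmp12 and Adamts1 smoke arrays 5 and 6 stand apart from 1 to 4, which enters their correlations. The genes most like each member by the same measure were Slc49a4 (r = 0.998) and Txnip (r = 0.994) for Timp3, Adam9 (r = 0.991) and Tmod3 (r = 0.981) for Mmp12, and Edc4 (r = 0.974) and Phb2 (r = 0.971) for Adamts1. They were Trib3 and Zfyve28 for Timp1 (r = 0.977 and 0.976), Srek1 and Itga4 for Timp2 (r = 0.919 and 0.909), and Mfsd5 and Mylip for Timp4 (r = 0.968 and 0.957). For the proteases they were Sft2d2 and 4930428B01Rik for Mmp2 (r = 0.959 and 0.939), Aqr and Lmo4 for Mmp3 (r = 0.968 and 0.962), Cyp2f2 and Spag16 for Mmp9 (r = 0.933 and 0.929), and Hnrnph1 and Hmgn3 for Mmp14 (r = 0.966 and 0.939). None of these 20 genes passed the test of smoke against control (limma, adjusted p of 0.464 to 0.998).

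The wider list of matrix proteases, activators and inhibitors had 81 genes, of which 69 had a probe set and 51 were tested. Mmp8 alone passed, and it fell, where 0.702% of all genes fell and 0.0224% rose. At an unadjusted p under 0.05, 5 of the 51 were higher and 4 lower, or 17.6%, against 10.2% of all genes (5.75% and 4.47%). The groups did not overlap for 2 higher and 3 lower genes, against 4.09% of all genes (1.97% and 2.11%). The median log2 change was -0.083. Of 7 other metalloproteinases tested 1 fell and 6 did not pass, and in the other groups none passed, namely 11 ADAMTS proteases, 9 ADAM proteases, 2 genes of the plasminogen system, 8 elastases and cathepsins and 14 other inhibitors and regulators.

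Several relatives of Adamts1 had values on both sides of 0 and did not pass on all arrays. Adamts4, which cuts aggrecan, was at 1.45 ± 0.44 and Adamts10, which binds fibrillin, at 0.72 ± 0.23 (adjusted p = 0.283 and 0.327). Adamts12 was at 0.60 ± 0.22 and Adamts6 at -0.96 ± 0.25 (adjusted p = 0.391 and 0.187). Adamts4 passed without smoke array 5 (1.76, adjusted p = 0.0458) and without smoke arrays 5 and 6 (1.90, adjusted p = 0.0140), where Adamts12 passed too (0.80, adjusted p = 0.0440). Neither passed without smoke arrays 1 and 2, with Adamts4 at 1.13 and Adamts12 at 0.49 (adjusted p = 0.375 and 0.443). Adamts10 read 504 to 697 in controls and 786 to 1498 after smoke, and Adamts6 read 223 to 333 and 88.2 to 188, so neither gene's groups overlapped. Adam12 and Adam19, membrane-anchored proteases of mesenchymal cells, were at 0.57 ± 0.19 and 0.74 ± 0.28 (adjusted p = 0.344 and 0.409). The groups of Adam12 did not overlap either, at 253 to 271 in controls and 339 to 506 after smoke. The cysteine protease Ctss of macrophages was at -0.68 ± 0.19 and Ctsh at -0.45 ± 0.12 (adjusted p = 0.220 and 0.211). Ctsh read 11404 to 13612 in controls and 7634 to 10983 after smoke, with no overlap. The other Ctsh probe set was at -0.48 ± 0.44 (limma, adjusted p = 0.735). Ctss read 4838 to 5783 on smoke arrays 1 to 4 and 7926 and 8998 on smoke arrays 5 and 6, against 8809 to 10368 in controls. It passed without smoke arrays 5 and 6 (-0.92, adjusted p = 0.00132), where 5.54% of all genes did. It also passed with the actin covariate (-0.64, adjusted p = 0.0235), where 2.77% did. Ctsh passed without smoke arrays 5 and 6 (-0.50, adjusted p = 0.0477). Without smoke arrays 1 and 2 neither passed, with Ctss at -0.58 and Ctsh at -0.50 (adjusted p = 0.289 and 0.110). Thbs2, Mmp23 and Serpinb1a did not pass on all arrays (1.54, 0.74 and -0.47, limma, adjusted p = 0.541, 0.581 and 0.782). Without smoke arrays 5 and 6 they passed, at 2.67, 1.30 and -1.21 (adjusted p = 0.00348, 0.0249 and 0.0218). With the actin covariate Thbs2 and Mmp23 passed (1.30 and 0.61, adjusted p = 0.0470 and 0.0369) and Serpinb1a did not (-0.33, adjusted p = 0.585).

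**Figure D5:**
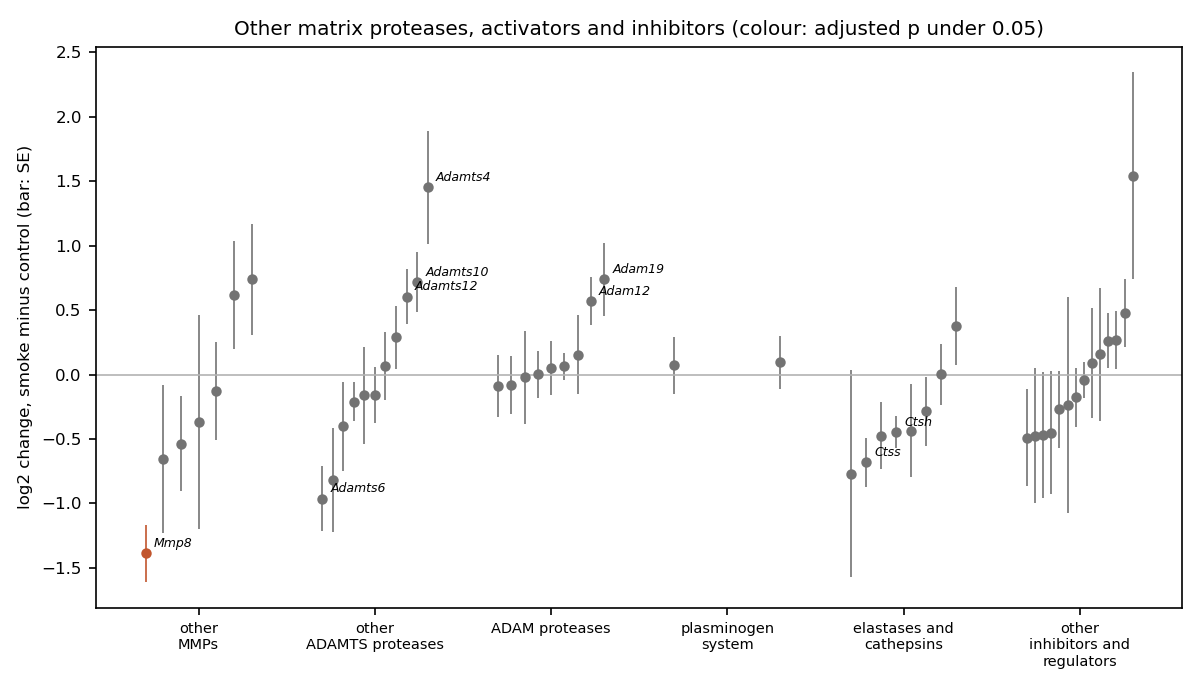
Log2 change, smoke minus control, with its SE for the 51 tested genes of the wider list, by role; named points are Mmp8 and the 8 genes with the next smallest p. Mmp8, in colour, is the 1 gene with an adjusted p under 0.05.

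Markers of other cells gave the setting for these levels. Fibroblasts make Mmp2, Mmp3 and Timp3 in many tissues. Of 10 fibroblast markers 0 passed the test, and their summed log2 level was 15.96 to 16.23 in controls and 15.57 to 16.40 after smoke. The lowest fibroblast sums were those of smoke arrays 1 and 2, at 15.57 and 15.77, and the highest those of smoke arrays 5 and 6, at 16.40 and 16.38. Smooth muscle and pericyte markers summed to 13.88 to 14.49 in controls and 14.48 to 14.74 after smoke, with 0 of 8 past the test. Endothelial, alveolar, airway, mesothelial, cardiac, fat and lymphocyte lists had 0 genes past the test. The part of these cells in the Timp3 and Adamts1 values was not tested.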

How the data were processed

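The values deposited by the authors are linear intensity readings, 1 for every probe set of an Affymetrix mouse array. Total RNA was extracted with Trizol and amplified for small samples, per the labels' protocols. Which program summarised the probes is not given in the sources used here. Each array had a mean of 500.0 once its highest and lowest 2% were set aside, and no detection calls were used. The number of arrays limits the precision.

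After the 1 zero was replaced by the smallest value above it, log2 values were quantile normalized between arrays. A floor was then set at the 10th percentile, an intensity of 15.8. Of 45037 probe sets other than 64 controls, the upper 60% by mean, 27022, were fitted with limma 3.58.1 in R 4.3.3 (lmFit, eBayes with trend) and adjusted by Benjamini-Hochberg. Symbols came from the platform annotation (34945 probe sets with 1 symbol, 932 with several, 9160 with none here) and were kept as they stood. The 4 dim member probe sets had exact permutation tests. The fit was tested on simulated data.

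No 2 arrays held identical values. Named genes were the members, the wider-list genes past the threshold with the 8 next by p, and the 2 genes most like each member. Thbs2, Mmp23 and Serpinb1a were added because they passed in other fits. The members and lists were chosen with earlier results of these data known. Changes by Xist level were added after the data were seen. Sequences are from RefSeq (GRCm38.p6). Figures used matplotlib 3.10.9 and Python 3.11.15.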

Additional observations from a re-analysis of the deposited data

Results flagged for a closer look

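In 61 groups of 4 or 6 arrays, 2 samples lay far from the rest of their group, and chance flags about 1 in 20. Mmp12 on control array 4 read 125 while the nearest control read 172, a gap of 0.898 of the range of the control group on the log2 scale. This lowest control still lay above smoke arrays 1 to 4. The dim Mmp14 probe set on control array 1 read 18.4 while the nearest control read 15.9, at intensities next to the floor of 15.8. The gap was 0.940 of the range on the log2 scale.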

How the results depend on the processing

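The count of members past the threshold stayed at 0 in each single omission, with every scaling, filter and floor tried, and with array weights, no variance trend, the Xist covariate, mean probe sets or smoke arrays 1 and 2 left out. It was 2 with the replicate block on arrays 1 to 4 and 2 on the same arrays without a block, 1 with the actin covariate and 3 under the pairwise rule. The stricter filter on dim probe sets left Mmp12 untested. The wider list gave 7, 8, 4 and 7 genes in these 4 settings, and 0 to 2 over single omissions. Over all tested genes these settings gave 788, 742, 371 and 915, array weights gave 183, and omitting control array 2 or 3 gave 59 or 62, against 97. Of the dim member probe sets 1 had a permutation p under 0.05 with values as deposited (the Mmp14 one, p = 0.0476) and 1 without a floor (the Mmp9 one, p = 0.0476), and 0 otherwise. Timp1 changed sign with median centring (-0.030), array weights (-0.19), the actin covariate (-0.027), without smoke arrays 1 and 2 (-0.28) and on high-Xist arrays (-0.37), and ran from -0.14 to 0.10 over single omissions. Timp2 was at -0.22 as the mean of its probe sets. Timp3 was at 0.47 on high-Xist arrays and -0.27 with array weights. Adamts1 ran from 0.56 to 0.72 over single omissions, and Mmp12 from -1.05 to -0.66. Same-numbered control and smoke arrays correlated at -0.068, 0.17, -0.060 and -0.050 after group centring, so the replicate block rests on shared numbers only. The causes were not tested.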
